A study of Caenorhabditis elegans with 6 samples.

Results

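The endoplasmic reticulum (ER) unfolded protein response was followed through 10 genes of *C. elegans*, chosen by name for their known roles: the sensors *ire-1*, *pek-1* and *atf-6*, the transcription factor *xbp-1*, the BiP chaperones *hsp-3* and *hsp-4*, the oxidative folding enzymes *ero-1*, *pdi-1* and *pdi-2*, and the calreticulin gene *crt-1*. All 10 were present in the RPKM tables, among 20661 genes tested, and each was above 0 in all 6 libraries. RPKM is the number of reads per kilobase of exon, scaled by the mapped reads of the library, so levels of different genes can be compared per length.

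Secreted and membrane proteins fold in the ER, where BiP, calreticulin and the disulphide isomerases hold and oxidise new chains. When unfolded proteins build up, IRE-1 cuts *xbp-1* mRNA so that a splice form coding for an active transcription factor is made, the kinase PEK-1 (the worm PERK) slows translation by phosphorylating eIF2alpha, and ATF-6 is a membrane-bound transcription factor. In worms *hsp-4* is the usual reporter of this response, while *hsp-3* is the more constitutive BiP gene. The tables give 1 value per gene, so the spliced and unspliced forms of *xbp-1* mRNA are not separated.

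RNA was sequenced from *daf-16(mgDf50);daf-2(e1370)* worms (called *daf-16(-);daf-2(-)* or the double mutant), from *daf-2(e1370)* worms (*daf-2(-)*) and from Wild-type (N2) worms (WT), with 2 replicates per strain. Both mutant strains carry *e1370*, a reduction-of-function allele of the gene for the insulin/IGF-1 receptor DAF-2, and the double mutant also lacks the FOXO factor DAF-16 through the deletion *mgDf50*. A strain with the *daf-16* deletion alone was not analysed here, so its effect was measured only in worms that carry *e1370*. All cultures held mixed stages and were grown at 20 °C on *E. coli* OP50. The labels do not say whether replicates came from separate cultures, so p-values measure the spread between these libraries, which may be technical.

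The deleted gene *daf-16* had 6.44 and 4.60 RPKM in the double mutant, 25.2 and 22.4 RPKM in *daf-2(-)*, and 24.9 and 29.4 RPKM in WT. The whole distribution of genes was shifted between strains. Over the 14395 genes with a mean of at least 1 RPKM, the median log2 fold change was -0.28 in *daf-2(-)* against WT, 0.34 in the double mutant against *daf-2(-)* and 0.10 in the double mutant against WT, and median-ratio scaling of the libraries brought these to -0.02, -0.02 and -0.01. Cell type and stage markers differed as well. The summed RPKM of 9 germline markers was 1080 to 1466 in the double mutant, 249 to 315 in *daf-2(-)* and 675 to 680 in WT, and that of 6 markers of moulting larvae was 242 to 346, 102 to 134 and 271 to 371 in the same order of strains. All 9 germline markers and 4 of the 6 moulting markers (3 under either other scaling) rose in the double mutant against *daf-2(-)*. In contrast, 3 of 5 body wall muscle markers fell (3 after median-ratio scaling, 1 after quantile normalization). By the same rule 26.1% of all genes rose and 9.82% fell in this comparison on the deposited RPKM. No marker was at 0 in any library. The part of these marker levels in the changes below was not tested, and in RNA from whole worms fewer cells of a type and less RNA per cell cannot be told apart.

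The 10 genes spanned a wide range of levels, with the folding machinery far above the sensors. On the mean RPKM over the 6 libraries, *crt-1* (1312) ranked 140th of all genes, *pdi-2* (863) 213th and *hsp-3* (510) 332nd, and *atf-6* (7.90) ranked 9128th. Between these lay *pdi-1* (255), *xbp-1* (220), *hsp-4* (134), *ero-1* (37.9), *ire-1* (27.01) and *pek-1* (24.9). The 10 genes held 0.372% and 0.342% of all RPKM in the double mutant, 0.331% and 0.338% in *daf-2(-)*, and 0.347% and 0.297% in WT. Their summed share was higher in both double mutant libraries than in either *daf-2(-)* library, and WT overlapped both mutant strains. Their summed RPKM stood the other way, at 3397 and 3496 in the double mutant and 3573 and 3577 in *daf-2(-)*, with 3305 and 3002 in WT. The RPKM of all genes also summed to less in both double mutant libraries than in either *daf-2(-)* library.

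**Figure D1:**
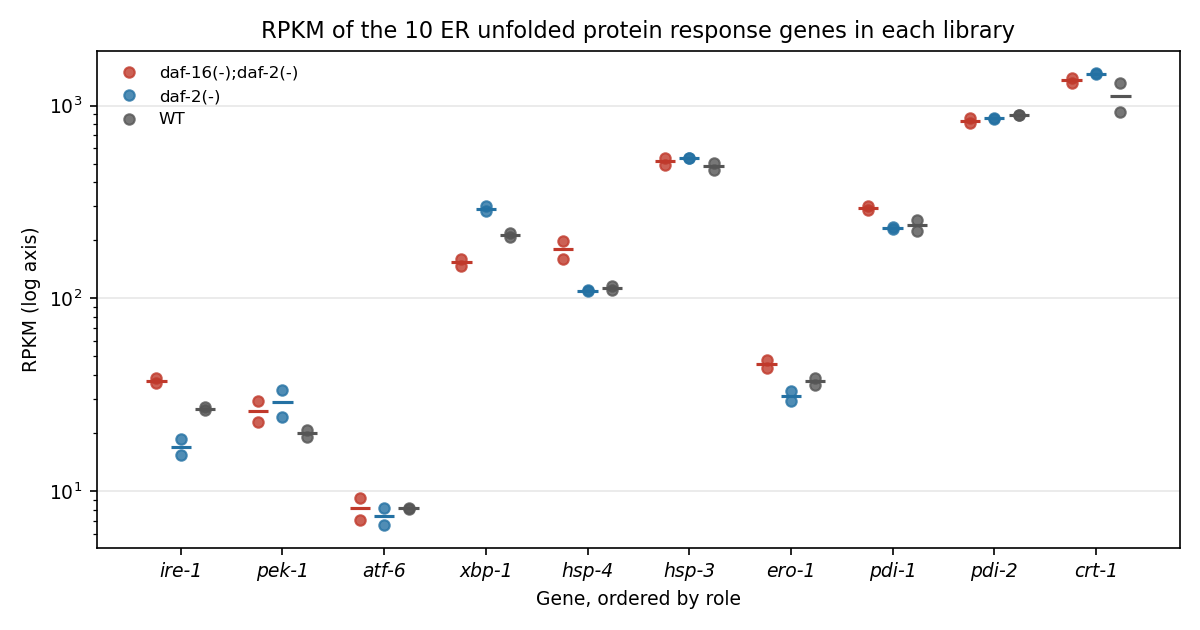
RPKM on a log axis of each gene (x axis, ordered by role) in the 2 libraries of each strain (points), with the strain mean as a bar. The libraries of *ire-1* and *xbp-1* separate into 3 strain levels in opposite orders, while those of *atf-6* overlap between all strains.

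Of the sensors, *ire-1* was the one that passed the test between strains. It lies on chromosome II and encodes the kinase and endoribonuclease that processes *xbp-1* mRNA. Its RPKM was 38.5 and 36.1 in the double mutant, 18.7 and 15.3 in *daf-2(-)*, and 26.3 and 27.2 in WT. The 3 strains did not overlap, with the double mutant highest and *daf-2(-)* lowest. Tested with limma on log2(RPKM + 1) with Benjamini-Hochberg adjustment over all genes, *ire-1* rose 2.14-fold in the double mutant against *daf-2(-)*, 1.10 on the log2 scale (SE 0.16, adjusted p = 0.00305), where folds are of RPKM + 1. It fell in *daf-2(-)* against WT, where the change was -0.63 (SE 0.16, adjusted p = 0.0312). Median-ratio scaling gave 0.69 for the rise against *daf-2(-)*, quantile normalization gave 0.60, and both passed, but it had an adjusted p of 0.0501 by limma without double mutant replicate 1. The fall against WT did not pass under either scaling (-0.34 and -0.35 on the log2 scale). With each library left out it was -0.77 to -0.49.

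The 2 other sensors did not pass in any comparison of the deposited RPKM. The level of *pek-1*, on chromosome X, was 29.3 and 22.8 RPKM in the double mutant, 33.6 and 24.13 RPKM in *daf-2(-)*, and 19.1 and 20.7 RPKM in WT. Both mutant strains lay above WT and overlapped each other. In *daf-2(-)* against WT the log2 fold change was 0.50 (95% interval -0.0082 to 1.005, limma adjusted p = 0.130). This comparison passed under both other scalings, where it was 0.79 (limma adjusted p = 0.0251, median-ratio) and 0.77 (0.0260, quantile). Against *daf-2(-)* the double mutant was at -0.14 (95% interval -0.64 to 0.37), and at -0.63 with quantile normalization (limma adjusted p = 0.0353). The level of *atf-6*, also on chromosome X, lay between 6.63 and 9.23 RPKM in the 6 libraries, and its strains overlapped in every comparison. Its log2 fold change was 0.12 in the double mutant against *daf-2(-)* (95% interval -0.41 to 0.65) and -0.13 in *daf-2(-)* against WT (-0.66 to 0.40).

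The transcription factor gene *xbp-1*, on chromosome III, moved opposite to *ire-1*. Its RPKM was 160 and 147 in the double mutant, 283 and 301 in *daf-2(-)*, and 209 and 217 in WT. No strains overlapped, and *daf-2(-)* was highest and the double mutant lowest. It averaged 153 ± 9.43 RPKM in the double mutant and 292 ± 13.2 RPKM in *daf-2(-)* (SD, n = 2 each), and fell by 0.93 on the log2 scale (limma adjusted p = 0.00248, SE 0.13). The change was -1.26 relative to the median of genes with a mean of at least 1 RPKM. It was -1.35 when libraries were scaled by median ratios and -0.78 when they were quantile normalized, and passed in both and without each library in turn. In *daf-2(-)* against WT *xbp-1* rose by 0.45 (limma adjusted p = 0.0396, SE 0.13), and this smaller call was lost with quantile normalization (0.23, limma adjusted p = 0.269), with the replicate number as a block (limma adjusted p = 0.0568) and in a separate fit of the 2 strains (0.0569). With each library left out the change was 0.41 to 0.50, with limma adjusted p of 0.0563 to 0.155.

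Of the BiP genes, *hsp-4* passed in one comparison and *hsp-3* in none. The level of *hsp-4*, on chromosome II, was 199 and 160 RPKM in the double mutant, 109 and 110 RPKM in *daf-2(-)*, and 116 and 111 RPKM in WT. Both double mutant libraries lay above all others, with WT narrowly above *daf-2(-)*. Against *daf-2(-)* *hsp-4* rose 1.62-fold in the double mutant, 0.70 on the log2 scale (limma adjusted p = 0.0103, SE 0.15). Median-ratio scaling gave 0.27, which did not pass, and quantile normalization 0.72, which did. The call was lost without double mutant replicate 1 (0.54) or without either *daf-2(-)* library. Against WT it was 0.65 in the double mutant (limma adjusted p = 0.168), and in *daf-2(-)* against WT it was -0.05 (95% interval -0.39 to 0.30).

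The level of *hsp-3*, on chromosome X, was 492 and 537 RPKM in the double mutant, 533 and 533 RPKM in *daf-2(-)*, and 466 and 502 RPKM in WT. The double mutant overlapped both other strains, and *daf-2(-)* lay above WT. No comparison passed, and the log2 fold change of the double mutant against *daf-2(-)* was -0.05 (95% interval -0.36 to 0.26). The proteins of *hsp-3* and *hsp-4* are close homologues, and the methods do not say how reads that match both genes were assigned.

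Of the oxidative folding genes, *ero-1* on chromosome I encodes the oxidase that passes disulphide bonds to the disulphide isomerases. Its RPKM was 48.0 and 43.2 in the double mutant, 33.0 and 29.2 in *daf-2(-)*, and 35.3 and 38.7 in WT. The strains did not overlap and stood in the same order as for *ire-1*. The rise in the double mutant against *daf-2(-)* was 0.54 on the log2 scale (limma adjusted p = 0.0291, SE 0.15). It was 0.12 after median-ratio scaling, 0.10 after quantile normalization, and passed in neither. With each library left out it was 0.45 to 0.62, with limma adjusted p of 0.0540 to 0.118.

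The disulphide isomerase gene *pdi-1*, on chromosome III, had 299.9 and 288 RPKM in the double mutant, 235.4 and 229 RPKM in *daf-2(-)*, and 223 and 254 RPKM in WT. The double mutant lay above both other strains, which overlapped. Its log2 fold change against *daf-2(-)* was 0.34 (95% interval 0.03 to 0.65, limma adjusted p = 0.0846), close to the median of genes with a mean of at least 1 RPKM, and it was -0.09 after median-ratio scaling and 0.57 after quantile normalization (limma adjusted p = 0.0190). The more abundant *pdi-2*, on chromosome X, had 814 and 858 RPKM in the double mutant, 865 and 857 RPKM in *daf-2(-)*, and 889 and 897 RPKM in WT. Only WT stood apart, above both mutant strains. Its log2 fold change was -0.04 in the double mutant against *daf-2(-)* (95% interval -0.36 to 0.27) and -0.05 in *daf-2(-)* against WT (-0.37 to 0.26), and with quantile normalization these were 0.51 (limma adjusted p = 0.0356) and -0.53 (0.0422).

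The calreticulin gene *crt-1*, on chromosome V, encodes a calcium-binding lectin chaperone and was the most abundant of the 10. It had 1306 and 1398 RPKM in the double mutant, 1455 and 1471 RPKM in *daf-2(-)*, and 1313 and 927 RPKM in WT. Both *daf-2(-)* libraries lay above the others. The WT replicates were the farthest apart of any strain for this gene, and one of them lay within the range of the double mutant. The log2 fold change was -0.11 in the double mutant against *daf-2(-)* (95% interval -0.58 to 0.35) and 0.41 in *daf-2(-)* against WT (-0.06 to 0.87, limma adjusted p = 0.169). In the WBcel235 annotation 6.57% of the exon bases of *crt-1* overlap *smut-1* on the opposite strand, and use of strand is not stated, while exons of the 9 other genes overlap other genes by less than 1% of their length.

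Counted over the 10 genes, 3 rose (*ire-1*, *hsp-4*, *ero-1*) and 1 fell (*xbp-1*) in the double mutant against *daf-2(-)* at a limma adjusted p of at most 0.05. These 40.0% stand beside 35.9% of all genes tested and 46.9% of genes with a mean of at least 1 RPKM, so the share of called genes was near the background. Of all genes 26.1% were called higher and 9.82% lower. Median-ratio scaling left 1 that rose (*ire-1*) and 1 that fell (*xbp-1*), beside 3459 higher and 3623 lower of all genes. With quantile normalization 4 rose (*ire-1*, *hsp-4*, *pdi-1* and *pdi-2*) and 2 fell (*pek-1* and *xbp-1*), beside 3703 and 3094. Without double mutant replicate 1 only *xbp-1* was called, and 2 genes were called without *daf-2(-)* replicate 1 or replicate 2. Calls over all genes were 2042, 4983 and 1661 in these fits, against 7423 with all libraries. The median log2 fold change of the 10 was 0.04, beside 0.15 for all genes and 0.34 for genes with a mean of at least 1 RPKM. The thresholds of the study, an unadjusted p of at most 0.05 and at least 2-fold, were applied to limma p-values and folds of RPKM + 1. This does not repeat the calls of the study, which used a beta-binomial test. By these thresholds only *ire-1* was called, beside 21.5% of all genes (15.8% higher and 5.65% lower).

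In *daf-2(-)* against WT, 1 of the 10 rose (*xbp-1*) and 1 fell (*ire-1*), beside 25.8% of all genes called (8.26% higher and 17.5% lower) and 33.9% of genes with a mean of at least 1 RPKM. With median-ratio scaling 2 of the 10 rose (*xbp-1* and *pek-1*) and 0 fell, beside 2889 and 2169 of all genes. With quantile normalization 1 rose (*pek-1*) and 1 fell (*pdi-2*), beside 2359 and 2498. Of the 2 genes called on the deposited RPKM, *ire-1* passed under neither scaling and *xbp-1* only by median ratios. Neither gene was called with any 1 library left out, in fits that called 0 of all genes without either WT library, 129 without *daf-2(-)* replicate 2 and 1463 to 1684 without the others, against 5328 with all 6 libraries. By the thresholds of the study 0 were called, beside 12.6% of all genes (4.84% higher and 7.77% lower). At an unadjusted limma p under 0.05, with no fold threshold, were 2 of the 10 and 8271 of all 20661 genes. Between the double mutant and WT, limma called 0 of the 10 and 0.155% of all genes (0.116% higher and 0.0387% lower). Of genes with a mean of at least 1 RPKM it called 0.215%. At an unadjusted limma p under 0.05 were *ire-1*, *xbp-1* and *hsp-4*, and 3966 of all genes. The log2 fold changes of *ire-1*, *xbp-1* and *hsp-4* were 0.47, -0.47 and 0.65. Each had the sign it had against *daf-2(-)*, and the comparisons share the double mutant libraries. The thresholds of the study called 2.16% of all genes there (1.42% higher and 0.736% lower).

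**Figure D2:**
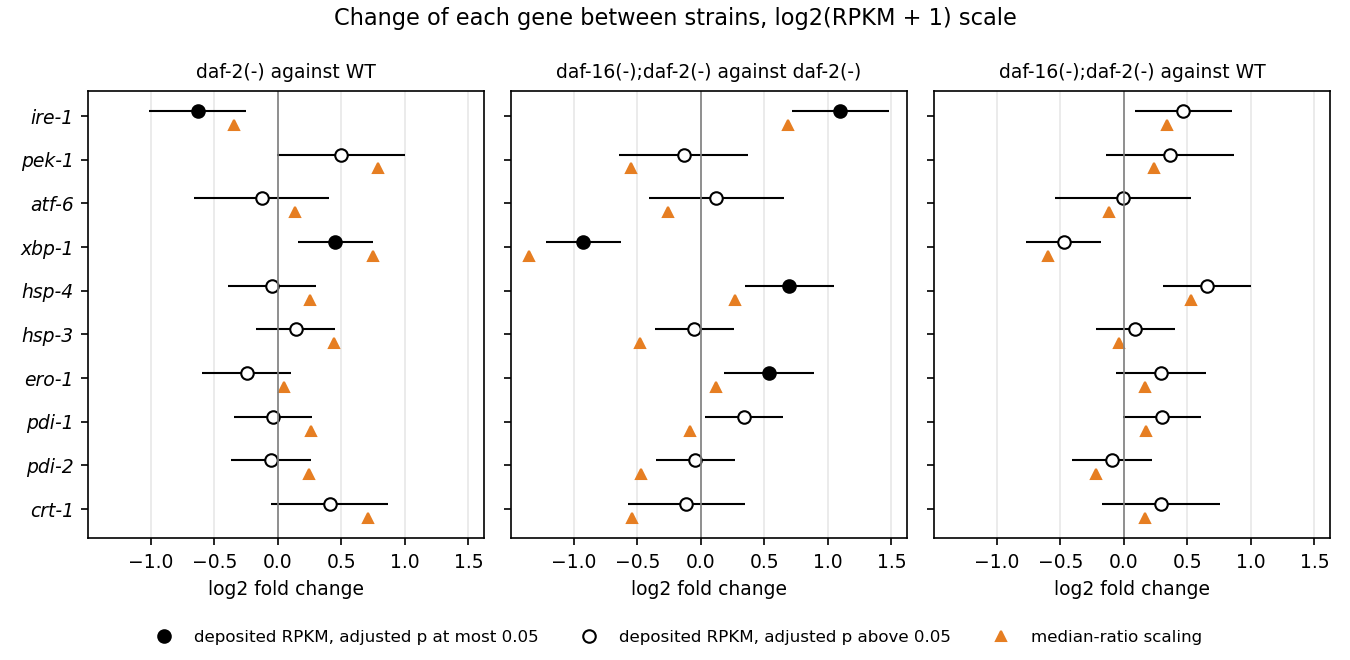
The log2 fold change of each gene (down the page) in 3 comparisons on the log2(RPKM + 1) scale. Circles are values from the deposited RPKM with 95% intervals, filled at a limma adjusted p of at most 0.05, and triangles are values with median-ratio scaling. Of the 10 genes, *ire-1* at 1.10 and *xbp-1* at -0.93 stand farthest from 0, in the double mutant against *daf-2(-)*.

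The ratio of 2 genes within a library is unchanged when the library is multiplied by 1 factor, as in median-ratio scaling, but not by quantile normalization, which moves genes unequally. The pairs were chosen after the values had been seen, and with 2 libraries against 2 the smallest exact permutation p is 0.333, so the ratios are described without a test. The ratio of *xbp-1* to the reporter *hsp-4* was 0.803 and 0.919 in the double mutant, 2.59 and 2.74 in *daf-2(-)*, and 1.8045 and 1.97 in WT. Per length, *xbp-1* mRNA was thus the more abundant of the pair in *daf-2(-)* and WT and the less abundant in the double mutant. The ratio of *ire-1* to *pek-1* was 1.31 and 1.59 in the double mutant, 0.557 and 0.633 in *daf-2(-)*, and 1.38 and 1.31 in WT. Here *daf-2(-)* stood apart, and the double mutant and WT overlapped.

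The ratio of *hsp-4* to *hsp-3* was 0.405 and 0.297 in the double mutant, 0.205 and 0.207 in *daf-2(-)*, and 0.249 and 0.220 in WT. The inducible gene stayed below its constitutive homologue in every library, and came closest to it in the double mutant. The ratio of *ero-1* to *pdi-2* was 0.0589 and 0.0503 in the double mutant, 0.0382 and 0.0341 in *daf-2(-)*, and 0.0397 and 0.0432 in WT. On the deposited RPKM this ratio separated the 3 strains in the order of *ero-1* itself. Quantile normalization turned the order of the double mutant and *daf-2(-)*, since the log2 fold change was then 0.10 for *ero-1* and 0.51 for *pdi-2*.

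**Figure D3:**
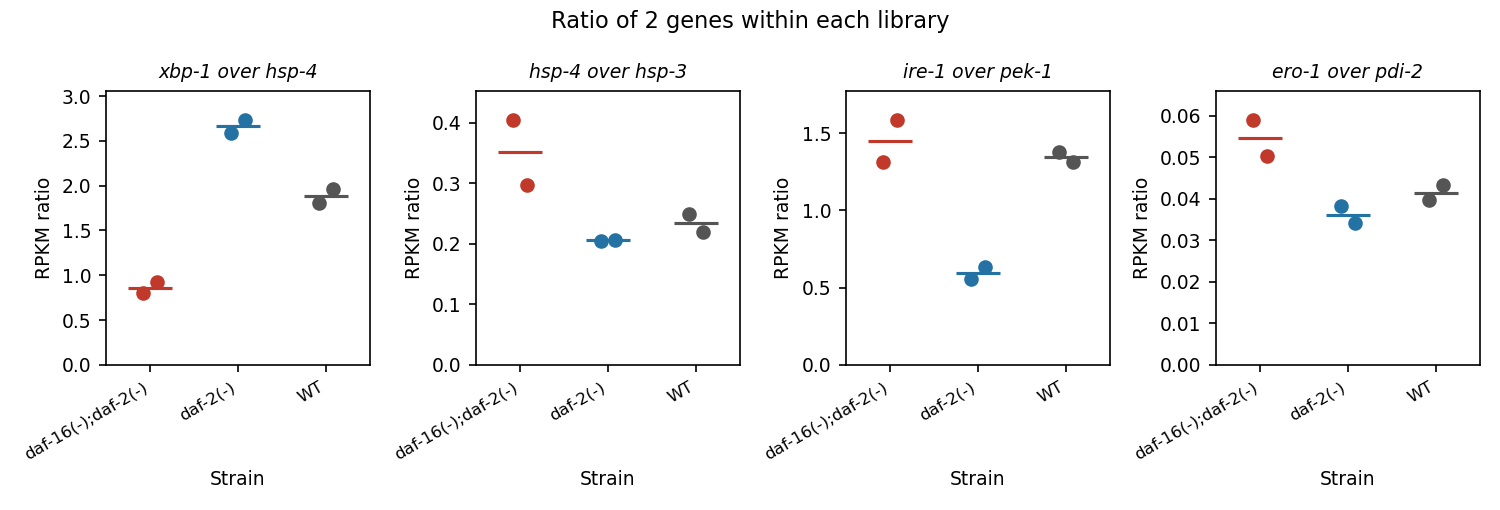
Ratio of the RPKM of 2 genes within each library (y axis from 0), with the strains along the x axis, points for libraries and bars for strain means. The ratio of *xbp-1* to *hsp-4* is lowest in the double mutant, at 0.803 and 0.919, and that of *ire-1* to *pek-1* lowest in *daf-2(-)*, at 0.557 and 0.633.

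Other genes of the ER were counted in 6 lists, of which 63 of 67 genes were matched in the tables. Against *daf-2(-)*, 41 of the 63 rose in the double mutant, 1 fell and 21 did not pass, or 66.7% called. This stood beside 35.9% of all genes (26.1% higher and 9.82% lower) and 46.9% of genes with a mean of at least 1 RPKM. The median log2 fold change of the 63 was 0.60, beside 0.34 for genes with a mean of at least 1 RPKM. The balance depended on scaling, with 10 higher and 5 lower by median ratios, and 29 higher and 2 lower by quantiles, beside the 3459 and 3623, and 3703 and 3094, of all genes given above. Without double mutant replicate 1, 9 were called, without *daf-2(-)* replicate 1, 21, and without *daf-2(-)* replicate 2, 3, in the fits in which calls over all genes were 2042, 4983 and 1661. In *daf-2(-)* against WT 1 rose and 24 fell (2 and 14 by median ratios, 1 and 22 by quantiles), beside 8.26% and 17.5% of all genes. Of genes with a mean of at least 1 RPKM 33.9% were called in either direction. Beside these 25 calls, 11 were made with either double mutant library left out and 9 without *daf-2(-)* replicate 1. The 0 called without *daf-2(-)* replicate 2 or either WT library came from fits with 129, 0 and 0 calls over all genes. The *daf-2(-)* libraries are shared between these comparisons. Against WT, in the double mutant, 0 were called by limma, with 21 at an unadjusted p under 0.05, as were 3966 of all genes.

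Of 13 other folding genes, chaperones and isomerases among them, 5 rose in the double mutant against *daf-2(-)* and 0 fell, by limma. The median log2 fold change of the 13 was 0.23, beside 0.34 for genes with a mean of at least 1 RPKM. In this comparison 26.1% of all genes were called higher. The largest changes by the rule for named genes were those of the calnexin gene *cnx-1* (0.84), the GRP170-like gene T24H7.2 (0.82) and the Hsp70-family gene *stc-1* (0.78). The RPKM of *cnx-1* was 127 and 125 in the double mutant, 79.8 and 60.8 in *daf-2(-)*, and 103 and 97.1 in WT. Calnexin is the membrane-bound relative of calreticulin, and unlike *crt-1* its strains did not overlap, with the same order as for *ire-1*. In contrast, the GRP94 gene *enpl-1* had 291 and 266 RPKM in the double mutant, 319 and 317 RPKM in *daf-2(-)*, and 248 and 255 RPKM in WT, and the disulphide isomerase gene *pdi-3* differed by -0.04 on the log2 scale between the double mutant and *daf-2(-)*. These 2 genes were picked for comparison after their values were seen. By median ratios 0 of the 13 rose and 4 fell, and by quantiles 3 rose and 1 fell.

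In ER-associated degradation, which returns misfolded proteins to the cytosol for the proteasome, 11 of 14 genes rose in the double mutant against *daf-2(-)*. All 14 had a positive log2 fold change, with a median of 0.59. The median was 0.34 for genes with a mean of at least 1 RPKM, and 26.1% of all genes were called higher. The ATPase genes *cdc-48.1* and *cdc-48.2*, which pull substrates from the membrane, rose by 0.96 and 0.81 on the log2 scale, with limma adjusted p of 0.00304 and 0.00407, and the adaptor gene *ubxn-4* by 0.93. By median ratios 2 of the 14 rose, and by quantiles 4. Of 11 genes of translocation and N-glycosylation 6 rose, with *dad-1* (0.84), *ribo-1* (0.74) and *ostb-1* (0.61), all subunits of the oligosaccharyltransferase, changing most. After median-ratio scaling 0 of the 11 passed, and after quantile normalization all 11 rose. All 6 genes of the COPII coat, which buds vesicles from the ER, rose (0 with median-ratio scaling, 1 with quantile normalization), by 0.39 for *sar-1* to 0.79 for *sec-24.2*.

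Around the eIF2alpha kinases and the processing of *xbp-1*, 4 of 5 genes rose in the double mutant against *daf-2(-)* and 1 fell. By median ratios 2 rose and 1 fell, and by quantiles 3 and 1. The shares of all genes on the deposited RPKM were 26.1% higher and 9.82% lower. The gene *rtcb-1* (listed as F16A11.2) encodes the RNA ligase that joins the *xbp-1* exons after IRE-1 has cut them. It had 23.8 and 21.2 RPKM in the double mutant, 9.05 and 6.23 RPKM in *daf-2(-)*, and 17.6 and 15.2 RPKM in WT. Its strains stood in the order of *ire-1*, opposite to *xbp-1*. It rose by 1.46 against *daf-2(-)* (SE 0.22, limma adjusted p = 0.00321) and by 1.07 with median-ratio scaling. The eIF2alpha kinase gene *gcn-2*, which answers to amino acid shortage, rose by 1.19 and its activator gene *gcn-1* by 0.98 (0.85 and 0.59 by median ratios). The gene that fell was *atf-5*, the worm ATF4, whose translation is tied to eIF2alpha phosphorylation, and it is named after its values were seen. It had 98.2 and 97.0 RPKM in the double mutant, 183 and 197 RPKM in *daf-2(-)*, and 112 and 110 RPKM in WT. Thus the transcription factor genes *atf-5* and *xbp-1* were both highest in *daf-2(-)* and lowest in the double mutant. On the log2 scale *atf-5* differed by -0.95 between the double mutant and *daf-2(-)* (limma adjusted p = 0.00215, SE 0.12) and by 0.77 between *daf-2(-)* and WT (limma adjusted p = 0.00935). Median ratios gave -1.38 and 1.07.

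The *abu* genes were named in worms as activated when the unfolded protein response is blocked, and they code for proteins with repeated sequence whose genes could share reads. In *daf-2(-)* against WT 12 of 14 fell, beside 17.5% of all genes called lower, with a median log2 fold change of -2.33. After median-ratio scaling 11 fell, and after quantile normalization 10. Against *daf-2(-)* 9 of 14 rose in the double mutant (6 by median ratios, 7 by quantiles), with a median of 0.85. There 26.1% of all genes were called higher. The RPKM of *abu-14* was 28.7 and 11.4 in the double mutant, 2.15 and 3.61 in *daf-2(-)*, and 27.6 and 31.5 in WT, and that of *abu-8* was 6.83 and 3.50, 0.260 and 0.390, and 14.3 and 11.22 in the same order of strains. For the double mutant against WT the median was -1.10 and limma called 0 of 14. At an unadjusted limma p under 0.05 were 8 of the 14 and 3966 of all genes. The summed RPKM of the moulting markers was likewise lowest in *daf-2(-)*, at 102 to 134, against 271 to 371 in WT, and its part in the *abu* values was not tested.

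**Figure D4:**
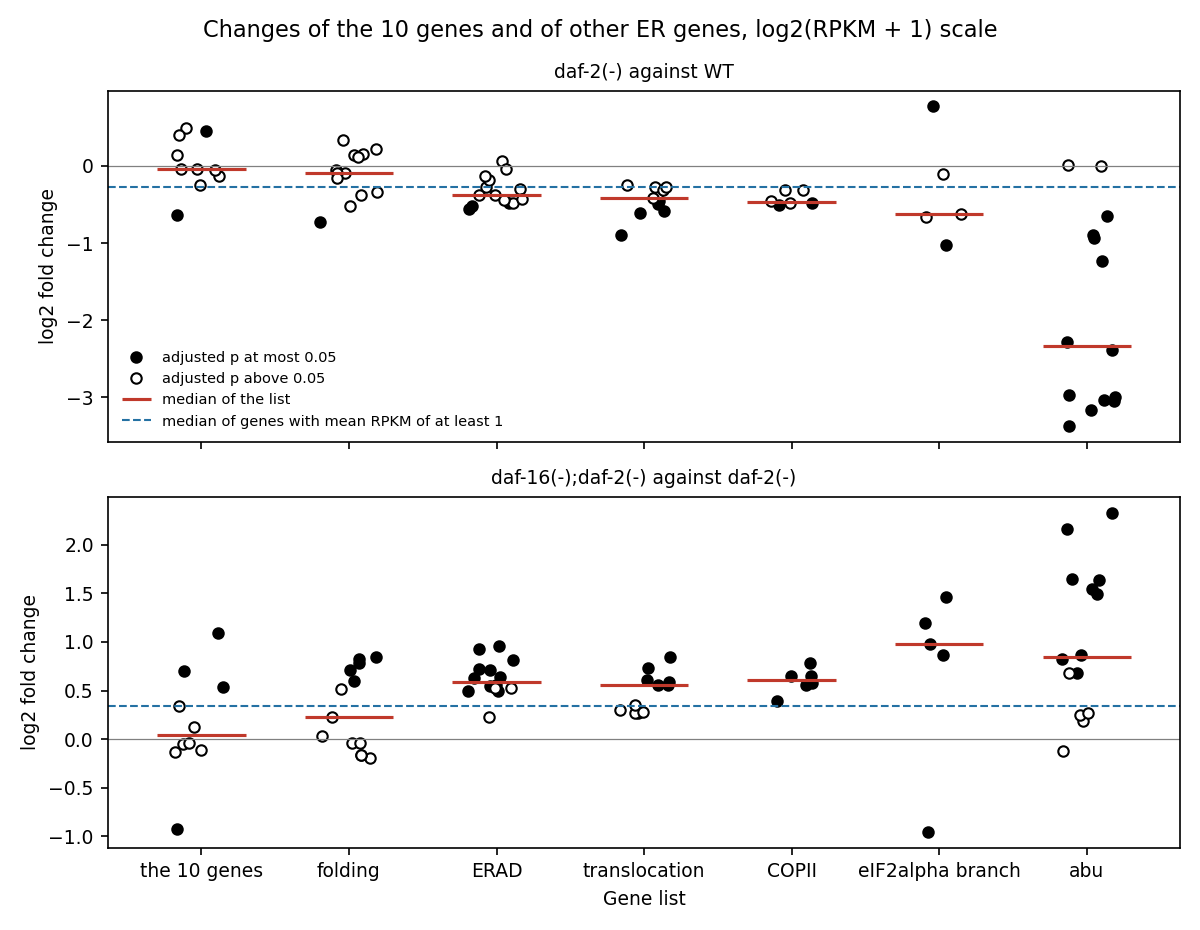
The log2 fold change (y axis, log2(RPKM + 1) scale) of the 10 genes and of each gene of the 6 ER lists (x axis), in *daf-2(-)* against WT (upper) and in the double mutant against *daf-2(-)* (lower). Points are genes, filled at a limma adjusted p of at most 0.05, red bars are list medians and the dashed line is the median of genes with a mean of at least 1 RPKM. The median of the 10 genes is -0.04 in the upper panel and 0.04 in the lower, and that of the *abu* genes -2.33 and 0.85.

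Genes with a pattern like that of *hsp-4* were looked for over the 6 libraries, among 8315 other genes with a mean of at least 10 RPKM. The highest Pearson correlations of log2(RPKM + 1) were those of B0495.7 (0.987), *wip-1* (0.986), Y47D7A.14 (0.986), *xbx-6* (0.985) and *ave-1* (0.982). The points share strains and libraries, and the values are a description. By the same measure *pdi-1* correlated at 0.904 with *hsp-4* (rank 258), *ero-1* at 0.869 (rank 558) and *ire-1* at 0.815 (rank 1231), whereas *hsp-3* was at -0.09 and *xbp-1* at -0.83. On the deposited RPKM the members of the response therefore did not share 1 pattern across the strains. The correlations were not computed with other scalings, and they do not measure the size of a change. In the double mutant against *daf-2(-)* the log2 fold change was 0.33 for B0495.7, 0.93 for *wip-1* and 0.56 for Y47D7A.14. It was 0.52 for *xbx-6* and 0.58 for *ave-1*. There limma did not call B0495.7 or Y47D7A.14 (adjusted p = 0.0780 and 0.0633). By median ratios the log2 fold change of the double mutant against *daf-2(-)* was 0.27 for *hsp-4*, -0.09 for *pdi-1* and 0.12 for *ero-1*. It was 0.69 for *ire-1*, -0.48 for *hsp-3* and -1.35 for *xbp-1*.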

How the data were processed

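The deposited tables hold RPKM of each gene in 2 replicates of each of 3 strains. The authors prepared TruSeq libraries from total RNA, demultiplexed and trimmed the reads (CASAVA 1.8.2 in the submitters' processing notes), aligned them to WS230 and computed RPKM in CLC Genomics Workbench with default parameters. How reads matching several genes were treated and whether strand was used is not given in the sources used here. RPKM does not keep counts, so no count model or counting interval was computed, and the beta-binomial test named in the methods was replaced.

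The 3 tables were joined by gene name, with a gene missing from a table set to 0, and 6 names on several lines were left out. Commas within numbers were removed. For 20661 genes, log2(RPKM + 1) was modelled over the 6 libraries in 1 limma fit (version 3.58.1, under R 4.3.3), the spread being moderated towards a trend with level. A gene was called at a Benjamini-Hochberg adjusted p of at most 0.05. Fold changes of low genes are understated by the pseudocount of 1 RPKM. The fit was also run on data simulated from its own estimate of the spread, without a shift of all genes between strains. That run cannot show how well the estimate suits these libraries. Gene names and chromosomes came from RefSeq and Ensembl annotation of WBcel235. Because the files use WS230, no coordinates are given.

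The genes and lists were chosen with earlier results of these data known. Named genes are the 10 members, up to 3 genes of each ER list with the largest change in the double mutant against *daf-2(-)* among called genes with a mean of at least 5 RPKM, the 5 genes most like *hsp-4*, and *daf-16* and *daf-2*, with *daf-2* at 8.20 to 15.5 RPKM in the 6 libraries. Genes named outside the rule are marked, apart from *sar-1*, which gives the end of a range. The 6 marker lists also covered sperm (2 of 8 rose in *daf-2(-)* against WT, 5 under either other scaling, and in the double mutant against *daf-2(-)* 1 rose, with 3 lower by median ratios and 1 higher and 2 lower by quantiles), yolk-producing intestine (0 of 5 called by limma in *daf-2(-)* against WT, with 1 at an unadjusted p under 0.05, and 1 that rose in the double mutant against *daf-2(-)*, 0 by median ratios) and intestine (1 of 5 rose and 1 fell in each, with 4 of 5 lower in the double mutant against *daf-2(-)* by median ratios). Beside these marker counts, 8.26% of all genes were called higher and 17.5% lower in *daf-2(-)* against WT on the deposited RPKM. In the double mutant against *daf-2(-)* the shares were 26.1% and 9.82%. Alternatives covered pseudocounts of 0.1 and 0.5, a minimum mean of 1 RPKM, 2 other scalings, the thresholds of the study, no trend, separate fits, a replicate block and leaving out each library.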

Additional observations from a re-analysis of the deposited data

How the results depend on the processing

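In *daf-2(-)* against WT, where 2 of the 10 genes and 25 of the other ER genes were called, the counts were 0 and 10 by the thresholds of the study and 0 and 11 in a separate fit of the 2 strains. The other ER genes numbered 16 with median-ratio scaling. Calls over all genes were 2605 by the thresholds of the study, 1472 in the separate fit and 5058 with median-ratio scaling. With each library left out in turn the 10 genes gave 0 and the other ER genes 0 to 11, while calls over all genes were 0 to 1684, against 5328 with all libraries. In the double mutant against *daf-2(-)*, 4 and 42 were called. The counts were 1 and 8 by the thresholds of the study, beside 4435 of all genes, and 2 and 15 with median-ratio scaling, beside 7082. With each library left out they were 1 to 3 and 3 to 33, while calls over all genes were 1661 to 5732, against 7423. In the double mutant against WT 0 and 0 were called. At an unadjusted limma p under 0.05 were 3 and 21, and 3966 of all genes. The other ER genes gave 3 with a minimum mean of 1 RPKM, beside 116 of 14395 genes. By the thresholds of the study they gave 7, beside 446 of all genes. A strain with 1 library left was assumed to vary like the others, and such fits have fewer samples.

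Signs that turned belonged to values that did not pass in the fit of the deposited RPKM. With median-ratio scaling, in *daf-2(-)* against WT, *atf-6* was at 0.14, *hsp-4* 0.25, *ero-1* 0.046, *pdi-1* 0.26 and *pdi-2* 0.25, in the double mutant against *daf-2(-)* *atf-6* was at -0.26 and *pdi-1* -0.088, and against WT *hsp-3* was at -0.039. With quantile normalization *atf-6* was at 0.11, *hsp-3* -0.25, *ero-1* 0.0064 and *crt-1* -0.11 in *daf-2(-)* against WT, and *atf-6* -0.21, *hsp-3* 0.35, *pdi-2* 0.51 and *crt-1* 0.42 in the double mutant against *daf-2(-)*. With each library left out, *atf-6* ran over -0.26 to 0.0032 and *pdi-1* over -0.13 to 0.056 in *daf-2(-)* against WT. In the double mutant *pek-1* ran over -0.37 to 0.095, *atf-6* over -0.049 to 0.29 and *hsp-3* over -0.11 to 0.010 against *daf-2(-)*, and *atf-6* over -0.18 to 0.16 against WT. The cause was not tested.

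The replicate numbers are not said to pair samples. Deviations of same-numbered libraries correlated at -0.16 (double mutant and *daf-2(-)*), 0.16 (double mutant and WT) and 0.11 (*daf-2(-)* and WT) over genes. With the replicate number as a block the counts were 1 and 20 in *daf-2(-)* against WT, where *xbp-1* was lost (limma adjusted p = 0.0568). They were 4 and 40 in the double mutant against *daf-2(-)*. Calls over all genes in these 2 comparisons were 4902 and 7193, against 5328 and 7423 without the block. A crossed block, chosen after seeing the data and fitted to these 2 mutant strains alone, gave 3 and 20 in the second comparison, beside 5153 of all genes.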
